A study of Homo sapiens with 8 samples.

Results

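The 10 genes described here encode selenoproteins: SEPP1, DIO2, GPX1, GPX3, GPX4, TXNRD1, TXNRD2, SEPN1, SEPW1 and MSRB1. They were taken by symbol from a table of 18406 genes. SEPP1 and DIO2 were picked because they rose strongly in these same libraries, so their values are given as a description, with no test. The other 8 were taken as members of the same family. Of the 10 genes, 9 reached a mean of 10 normalised reads and entered the fit across 13320 genes, and GPX1 did not.

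RNA was sequenced from 92.1 cells, an established line from a uveal melanoma, the cancer of pigment cells of the eye. The cells were treated for 24 h with 10 nM trametinib, 10 nM panobinostat, trametinib plus panobinostat, or the DMSO vehicle, with 2 libraries in each of the 4 groups. Trametinib blocks MEK1 and MEK2, the kinases that activate ERK. Panobinostat blocks histone deacetylases, which remove acetyl groups from histones and other proteins. The study asked whether a histone deacetylase inhibitor adds to MEK inhibition. The label of the panobinostat libraries also carries the abbreviation for a MEK inhibitor, and the drug name was followed. The combination label gives 10 nM once, so that each drug was used at 10 nM is an assumption. All groups come from 1 cell line, and nothing in the labels says whether the libraries of a group are separate cultures. The p-values therefore refer to the spread between libraries only. The sample numbers form 2 separate ranges, 1 for vehicle and trametinib and 1 for panobinostat alone or combined. Comparisons of panobinostat with vehicle, and of both drugs with vehicle or trametinib, cross these ranges. Whether the ranges mark separate batches is not known here, and such a difference could not be told apart from panobinostat.

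Selenoproteins carry selenocysteine, an amino acid with selenium in place of sulphur, which is inserted at UGA, a codon that otherwise ends translation. The insertion needs a hairpin in the mRNA, the protein SECISBP2 that binds it, a dedicated elongation factor and a dedicated tRNA. Most of the enzymes use selenocysteine in redox reactions: glutathione peroxidases reduce peroxides, thioredoxin reductases recharge thioredoxin, and methionine sulphoxide reductases repair oxidised methionine. SEPP1, now named SELENOP, is secreted, mainly by the liver, and carries selenium in plasma to other tissues. DIO2 is the type 2 deiodinase, which turns the prohormone thyroxine into the active thyroid hormone T3 inside cells.

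The libraries held 6897784 to 16861001 reads. The trametinib libraries were the least alike, with r = 0.897 across tested genes, against 0.974 to 0.991 in the other groups. Trametinib replicate 2 listed 5362 genes at 0 and trametinib replicate 1 listed 3743, against 2222 to 2890 in the other 6. Only 2.10% of the genes detected in trametinib replicate 2 had 1 to 5 reads, and 6.74% in trametinib replicate 1. Of 7 melanocyte markers, 6 had at least 1413 normalised reads in every library. DCT had 1984 and 1912 with trametinib and 258 and 236 with both drugs, against 5.10 and 10.1 with panobinostat and 14.4 and 4.75 in vehicle. The 7 summed to levels of 167229 and 175142 normalised reads with trametinib, 99938 and 103741 with panobinostat, 137486 and 138966 with both drugs, and 103558 and 111479 in vehicle. The 3 endothelial markers summed to at most 4.08 and the measured macrophage markers to at most 11.7. In bulk RNA, a change in the share of cells that express a gene and a change in RNA per cell cannot be told apart.

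SEPP1 was at the edge of detection in vehicle and higher in all treated groups, most with both drugs. It had 51.1 and 58.3 normalised reads with trametinib, 10.2 and 27.2 with panobinostat, 338 and 330 with both drugs, and 2.41 and 0 in vehicle. No treated library overlapped vehicle, and both libraries of the combination lay above all others. The vehicle libraries held only 4 and 0 reads of SEPP1, so each ratio rests on few reads, and the count of 0 allows up to 2.38 normalised reads. Over the pooled reads, the ratio to vehicle was 40.0 with trametinib (exact 95% counting interval 15.2 to 149), 13.7 with panobinostat (4.93 to 53.0) and 245 with both drugs (95.01 to 902). These intervals cover counting error only, not the spread between libraries. Since SEPP1 was picked for its rise, they are not a test of it.

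On the log2(value + 1) scale, the combination exceeded vehicle by 7.50 ± 0.72 for SEPP1 (SE of the fit), the largest rise of all 13320 tested genes. The rise was 4.91 with trametinib, the 18th largest there, and 3.27 with panobinostat, the 76th largest. With a pseudocount of 5 in place of 1, these log2 rises were 5.80, 3.29 and 1.86 for both drugs, trametinib and panobinostat. The ranks are those with a pseudocount of 1 and depend on it, since vehicle held so few reads of SEPP1. As SEPP1 was picked for its rise, they are a description only. The combination stood 2.59 above trametinib alone and 4.24 above panobinostat alone, comparisons that do not rest on the vehicle reads.

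SEPP1 is best known as a product of hepatocytes, and other cells make it too. Of the hepatocyte markers, APOA1 was at 0 in both trametinib libraries and both libraries of the combination. SERPINA1, which codes for alpha-1 antitrypsin, had 215 and 93.4 normalised reads with trametinib, 16.3 and 19.2 with panobinostat, 30.4 and 25.9 with both drugs, and 10.8 and 16.6 in vehicle. The 4 fibroblast markers, of which COL1A1 and LUM made up nearly all, summed to 757 and 990 with trametinib, 969 and 998 with panobinostat, 1228 and 1295 with both drugs, and 389 and 408 in vehicle. COL1A1 had 511 and 821 with trametinib, 510 and 593 with panobinostat, 608 and 774 with both drugs, and 133 and 149 in vehicle. LUM had 246 and 169 with trametinib, 450 and 405 with panobinostat, 592 and 502 with both drugs, and 255 and 259 in vehicle, so it was not higher with trametinib. COL3A1 was at 0 with trametinib and in vehicle and had 21.1 and 18.3 with both drugs, and DCN had at most 7.02 in any library. The sums were higher in every treated library than in vehicle, as SEPP1 was, and their part in its higher level was not tested. CCDC152 lies on the opposite strand and shares 1452 bases, 53.2%, of the SEPP1 exons in the GENCODE v29 annotation. It had 2 reads over all libraries, both in combination replicate 1. Whether the counting used strand is not stated in the labels.

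DIO2 was high with both drugs, and of the other libraries only 1, trametinib replicate 2, stood above vehicle by more than a few reads. It had 41.1 and 232 normalised reads with trametinib, 49.95 and 52.4 with panobinostat, 1767 and 1891 with both drugs, and 42.7 and 51.5 in vehicle. The combination libraries lay above all the others, while both single drug groups overlapped vehicle. The log2 difference from vehicle was 5.25 ± 0.61 with both drugs, the 34th largest rise, against 1.05 with trametinib and 0.12 with panobinostat. The trametinib value was -0.19 without trametinib replicate 2 and 2.28 without trametinib replicate 1, so 1 library sets its sign. DIO2-AS1, on the opposite strand, shares 70 bases of the DIO2 exons. The combination exceeded panobinostat alone by 5.13, the third largest rise in that comparison, and trametinib alone by 4.21, with 2.97 without trametinib replicate 1 and 5.44 without trametinib replicate 2.

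**Figure D1:**
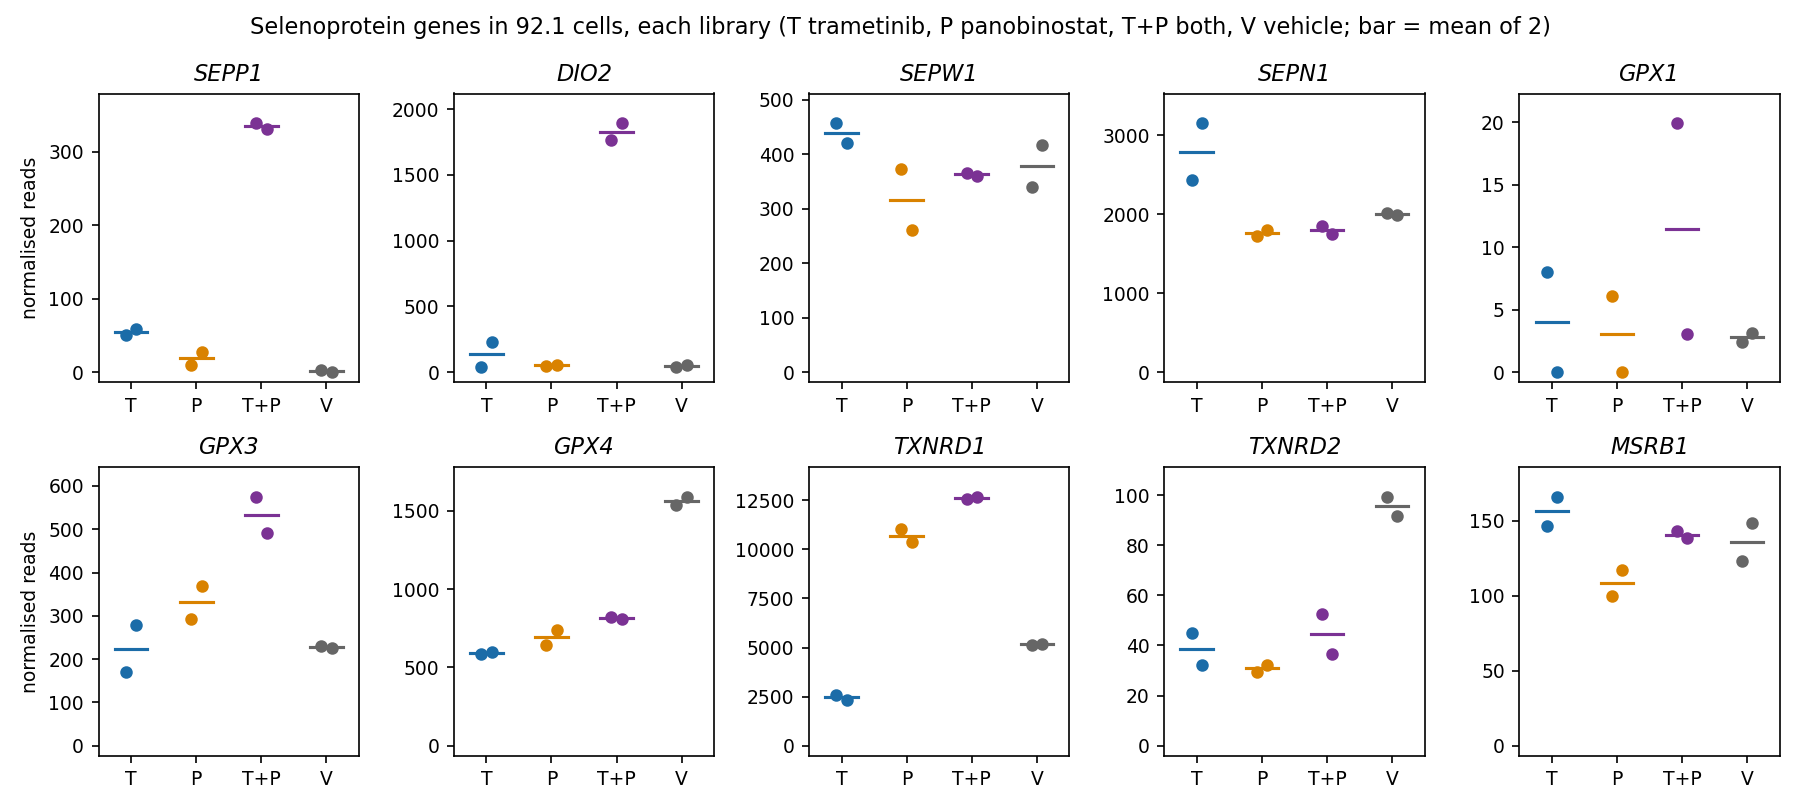
Normalised reads (linear axis from 0) of the 10 selenoprotein genes with trametinib (T), panobinostat (P), both drugs (T+P) and vehicle (V), 1 point per library and a bar at the mean of the 2. SEPP1 is at 338 and 330 and DIO2 at 1767 and 1891 with both drugs, above every other library, while GPX4 is lower in all 6 treated libraries than in vehicle.

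The upstream windows of SEPP1 and DIO2 are shown because, of the tested selenoprotein genes, these moved most with both drugs. They are the 250 bases before the annotated start in RefSeq (GRCh38.p14), 5′ to 3′ on the strand of the gene, with motif matches in capitals. The SEPP1 window lies at chr5:42811893-42812142 on the minus strand. It holds GTAAACA, a FOXO factor motif, starting 45 bases before the start, and GCAAGGTCA, which on the other strand reads as the antioxidant response element TGACNNNGC. The DIO2 window shown lies at chr14:80212179-80212428 on the minus strand, and it holds the cyclic AMP response element TGACGTCA starting 96 bases before the start.
SEPP1: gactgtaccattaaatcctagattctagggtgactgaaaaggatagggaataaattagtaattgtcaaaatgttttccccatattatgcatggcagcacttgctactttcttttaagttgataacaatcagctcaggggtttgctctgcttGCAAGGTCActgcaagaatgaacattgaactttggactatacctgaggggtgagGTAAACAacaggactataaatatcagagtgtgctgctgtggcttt
DIO2: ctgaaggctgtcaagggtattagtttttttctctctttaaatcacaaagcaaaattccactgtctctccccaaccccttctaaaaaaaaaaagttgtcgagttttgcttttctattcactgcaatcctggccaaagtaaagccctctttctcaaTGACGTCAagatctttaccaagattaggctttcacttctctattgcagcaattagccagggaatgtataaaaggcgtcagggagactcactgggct
Both strands were searched. Over 35116 such windows of all genes, GTAAACA occurred in 2.98%, TGACGTCA in 1.65% and TGACNNNGC in 10.9%. The other annotated DIO2 window held none of the motifs searched, which also included the E-box CACGTG (6.34% of windows) and CATGTG (9.42%), a core shared with the M-box of pigment genes. All 10 genes had a window, 16 in all. The element TGACNNNGC was also matched in both TXNRD1 windows and in SEPN1, and CACGTG in GPX1. A match is a run of letters, not a measured binding site.

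Glutathione peroxidases reduce hydrogen peroxide and lipid peroxides with electrons from glutathione. GPX4, which reduces lipid peroxides within membranes and holds back ferroptosis, fell with either drug and with both. It had 583 and 599 normalised reads with trametinib, 645 and 737 with panobinostat, 823 and 811 with both drugs, and 1537 and 1588 in vehicle. All 6 treated libraries lay below both vehicle libraries, and the group means were 37.8%, 44.2% and 52.3% of the vehicle mean with trametinib, panobinostat and both. The log2 change was -1.40 ± 0.096 with trametinib (limma, adjusted p = 2.68e-06). It was -1.18 with panobinostat (adjusted p = 3.86e-05) and -0.93 with both drugs (adjusted p = 3.95e-05). With both drugs GPX4 was also 0.47 above trametinib alone on the log2 scale (adjusted p = 0.00541), and 0.24 above panobinostat alone, which did not pass (adjusted p = 0.1; 95% interval 0.03 to 0.46 before adjustment).

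GPX3, the secreted peroxidase of plasma, rose with both drugs and did not pass the limma test of all libraries with either alone. It had 170 and 278 normalised reads with trametinib, 292 and 370 with panobinostat, 575 and 491 with both drugs, and 231 and 226 in vehicle. The combination libraries were the highest, and the trametinib libraries lay on either side of vehicle. The log2 change was 1.22 ± 0.23 with both drugs (adjusted p = 0.00187), 0.52 with panobinostat (adjusted p = 0.122, but 0.0456 with DESeq2 and 0.00384 in a fit of only the groups compared) and -0.07 with trametinib (adjusted p = 0.831). Without trametinib replicate 2, the trametinib value was -0.42 and passed (adjusted p = 0.0478). Against trametinib alone, the combination was higher by 1.28 (adjusted p = 0.00278). Against panobinostat alone it was higher by 0.69, which did not pass (adjusted p = 0.0594) but passed with edgeR (0.0498) and DESeq2 (0.00809).

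GPX1, the abundant cytosolic peroxidase of most tissues, was barely detected. It had 8.02 and 0 normalised reads with trametinib, 6.12 and 0 with panobinostat, 19.9 and 3.04 with both drugs, and 2.41 and 3.17 in vehicle. No library held more than 17 reads of it, and the groups overlapped. GPX1 has the pseudogenes GPX1P1 and GPX1P2 in the GENCODE annotation, and reads that match more than 1 copy may have been split or left out, so its level is uncertain. The same holds for SEPW1, SELK and TXN, which also have annotated pseudogenes.

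Thioredoxin reductases use NADPH to keep thioredoxin reduced. TXNRD1, the cytosolic enzyme, moved in opposite directions with the single drugs. It had 2597 and 2315 normalised reads with trametinib, 11010 and 10373 with panobinostat, 12558 and 12671 with both drugs, and 5133 and 5199 in vehicle. The groups did not overlap, and the combination libraries were the highest. TXNRD1 fell with trametinib by 1.07 on the log2 scale (SE 0.064; limma, adjusted p = 1.15e-06). It rose by 1.05 with panobinostat (adjusted p = 1.21e-05) and by 1.29 with both drugs (adjusted p = 4.75e-07). The combination exceeded trametinib alone by 2.36, or 5.14-fold (adjusted p = 5.03e-08). It exceeded panobinostat alone by 0.24 (adjusted p = 0.0238), a difference that no longer passed with TMM scaling (0.21, adjusted p = 0.0503) or without any 1 of the 4 libraries compared (0.20 to 0.28, largest adjusted p = 0.174).

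TXNRD2, the mitochondrial enzyme, was far less abundant and lower in all treated groups. It had 45.1 and 32.1 normalised reads with trametinib, 29.6 and 32.3 with panobinostat, 52.7 and 36.5 with both drugs, and 99.3 and 91.8 in vehicle. No treated library overlapped vehicle, while the treated groups overlapped in part. The log2 change was -1.30 ± 0.41 with trametinib (adjusted p = 0.0247) and -1.60 with panobinostat (adjusted p = 0.0166). With both drugs it was -1.10 (adjusted p = 0.0486), close to the threshold. The trametinib call ended without either vehicle library (adjusted p up to 0.155), and the panobinostat call without either vehicle or either panobinostat library (up to 0.141). The combination call ended under 5 other settings (up to 0.0877) and without any 1 of the 6 libraries outside the trametinib group (up to 0.23).

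SEPN1, now named SELENON, lies in the endoplasmic reticulum, and its loss causes a congenital muscle disease. It rose with trametinib, where it had 2432 and 3148 normalised reads, against 1724 and 1797 with panobinostat, 1854 and 1749 with both drugs, and 2012 and 1993 in vehicle. Both trametinib libraries were above all others. The log2 change was 0.47 ± 0.11 with trametinib (adjusted p = 0.00569), -0.19 with panobinostat (adjusted p = 0.234) and -0.15 with both drugs (adjusted p = 0.273). Without trametinib replicate 2 the rise was 0.28 (adjusted p = 0.00547). With both drugs SEPN1 was lower than with trametinib alone (log2 difference -0.62, adjusted p = 0.00232).

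SEPW1, a small selenoprotein abundant in muscle, and MSRB1, which reduces methionine-R-sulphoxide, did not pass in any comparison. SEPW1 had 456 and 421 normalised reads with trametinib, 373 and 260 with panobinostat, 365 and 361 with both drugs, and 339 and 416 in vehicle. MSRB1 had 146 and 166 with trametinib, 99.9 and 117 with panobinostat, 143 and 138 with both drugs, and 123 and 148 in vehicle. The combination libraries lay within the vehicle range for both genes. Its 95% interval against vehicle was -0.47 to 0.37 for SEPW1 and -0.47 to 0.59 for MSRB1 on the log2 scale, so a change of that size in either direction could have been missed.

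Of the 7 tested genes that were not picked for a rise, trametinib moved 4, namely SEPN1 up and GPX4, TXNRD1 and TXNRD2 down, where 51.0% of all tested genes passed, 23.7% up and 27.4% down. Panobinostat moved 3, TXNRD1 up and GPX4 and TXNRD2 down, where 30.5% passed, 15.0% up and 15.6% down. Both drugs together moved 4, GPX3 and TXNRD1 up and GPX4 and TXNRD2 down, where 50% passed, 24.5% up and 25.5% down. The median log2 change of the 7 was -0.07 with trametinib, -0.27 with panobinostat and -0.05 with both, against -0.07, 0.00 and 0.03 over all tested genes. These shares are near the background, and the family did not move as 1 block. Without trametinib replicate 2, 5 passed with trametinib, the same 4 and GPX3, which was lower. The 3 comparisons share the vehicle libraries.

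Against trametinib alone, the combination was higher in GPX3, GPX4 and TXNRD1 and lower in SEPN1, 4 of 7, where 32.8% of all genes passed, 17.6% up and 15.2% down. Against panobinostat alone, TXNRD1 was higher, 1 of 7, where 24.0% passed, 10.9% up and 13.1% down. The median log2 difference of the 7 was 0.20 against trametinib and 0.24 against panobinostat, and over all genes it was 0.06 and 0.01.

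**Figure D2:**
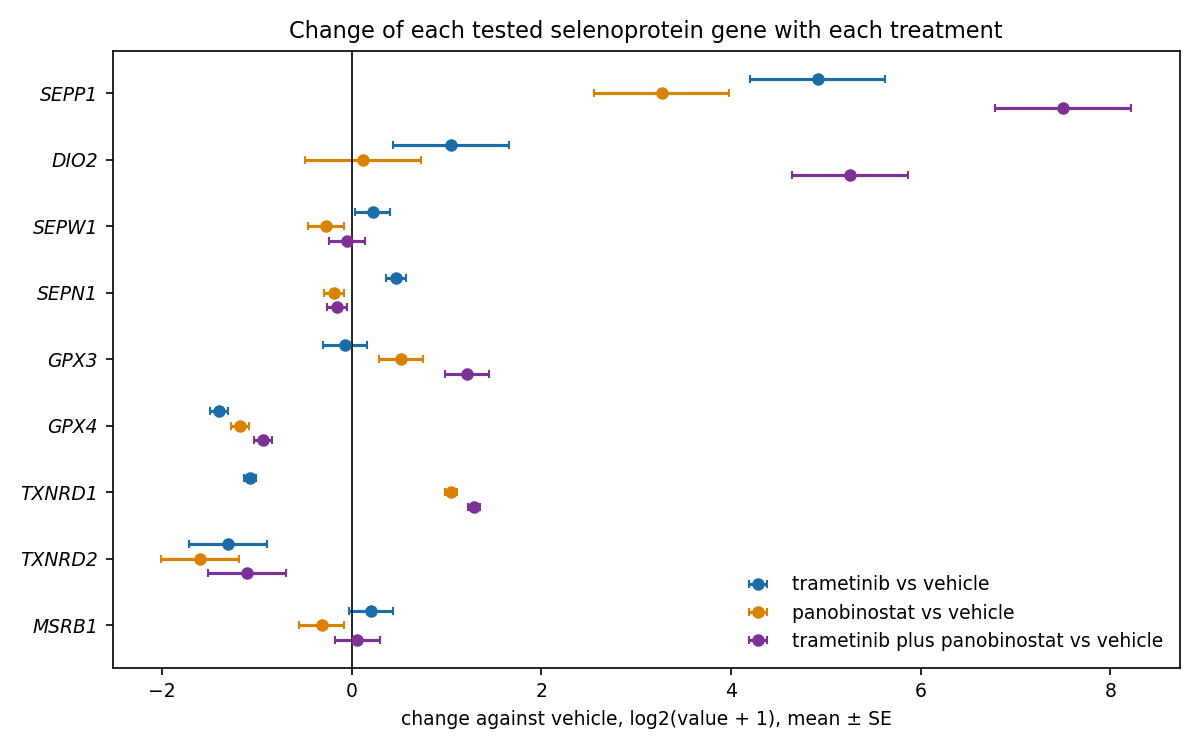
Log2 change against vehicle, on the log2(value + 1) scale, of each tested selenoprotein gene with trametinib, panobinostat and both drugs; bars are the SE of the limma fit, and SEPP1 and DIO2 are shown as a description only. TXNRD1 lies at -1.07 with trametinib and at 1.05 with panobinostat, and GPX4 lies below 0 in all 3 comparisons with vehicle.

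The interaction compares the combination with the sum of the single drug changes on the log2 scale. For GPX4 the single changes summed to -2.58, which would leave 260 normalised reads, and the combination averaged 817. This interaction was 1.65 ± 0.14 (limma, adjusted p = 7.19e-05). For TXNRD1 the single changes summed to -0.03, or 5072 normalised reads, and the combination averaged 12614. Its interaction was 1.31 ± 0.091 (adjusted p = 2.68e-05). These 2 of 7 passed, where 19.3% of all tested genes did, 10.2% above and 9.04% below 0. Those of TXNRD2 (1.80, adjusted p = 0.0593), SEPN1 (-0.43, 0.0807) and GPX3 (0.76, 0.144) did not.

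For the picked genes the same arithmetic is a description. DIO2 averaged 1829 normalised reads with both drugs, against 107 from the sum of the single drug changes, a log2 difference of 4.08 ± 0.86 that stayed between 2.85 and 5.32 when any 1 library was left out. SEPP1 averaged 334, against 534 from the sum, a difference of -0.68 ± 1.01. For SEPP1 the sign is not set by these data, since it was 0.65 with a pseudocount of 5.

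**Figure D3:**
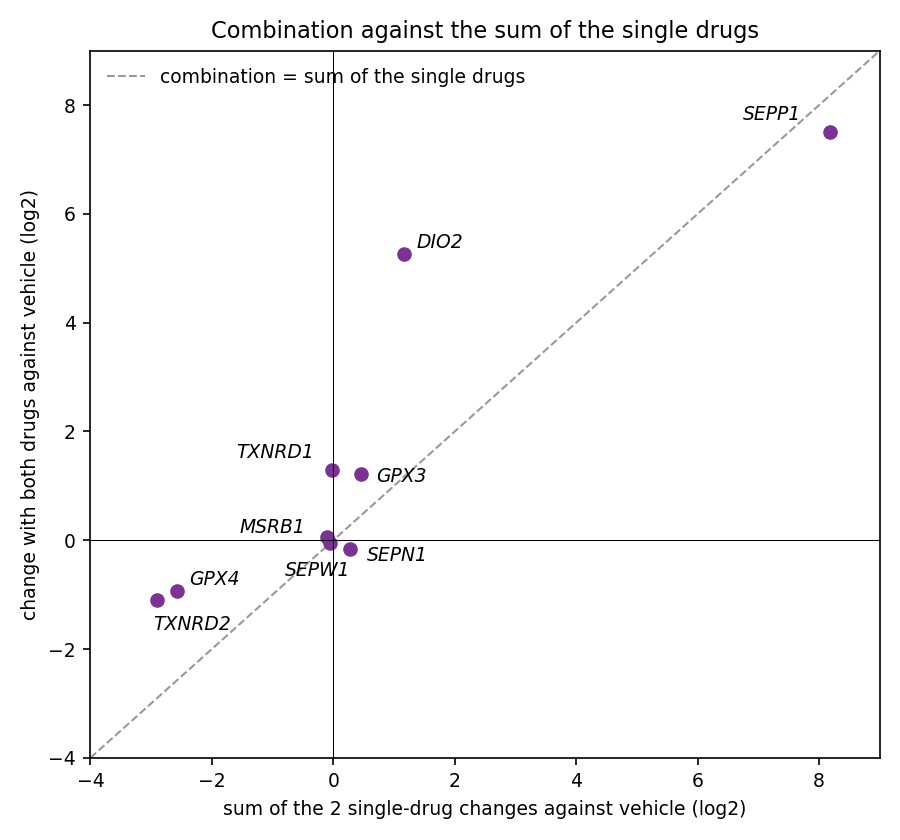
Log2 change with both drugs against the sum of the single drug changes for the 9 tested selenoprotein genes; the diagonal marks equal values. DIO2 lies 4.08 above the diagonal, GPX4 1.65 and TXNRD1 1.31, while SEPW1 and MSRB1 lie close to it. SEPP1 and DIO2, picked for their rise, are shown as a description only.

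Levels were compared between genes per kilobase of the exons of each gene in GENCODE v29. With trametinib, SEPN1 led with a mean of 642 normalised reads per kilobase, ahead of TXNRD1 at 487 and GPX4 at 479, which overlapped. With panobinostat TXNRD1 led at 2119, followed by GPX4 at 561 and SEPN1 at 405. With both drugs, TXNRD1 led at 2500, followed by GPX4 at 663, SEPN1 at 415 and SEPW1 at 339. GPX3 at 303 and DIO2 at 272 came next and overlapped, and SEPP1 at 123 stood above MSRB1 at 78.7. In vehicle GPX4 led at 1268, before TXNRD1 at 1024, SEPN1 at 461 and SEPW1 at 353, and no neighbours in the order overlapped. DIO2 at 7.01 and SEPP1 at 0.441 were near the bottom in vehicle, with GPX1 at 1.95 between them.

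The table held 23 selenoprotein genes, 18 of them tested, and 9 of these tested genes are outside the set above. With trametinib 4 of the 9 were lower and none higher, namely SEP15, SELK, SELS and EPT1, where 27.4% of all tested genes were lower and 23.7% higher. With panobinostat 1 was lower, and with both drugs 3 were lower, SELS, EPT1 and C11orf31, where 15.6% and 25.5% of all genes were lower. SEP15, a protein of the endoplasmic reticulum, had 439 and 224 normalised reads with trametinib, against 698 and 667 in vehicle (log2 change -1.12 ± 0.25, adjusted p = 0.00511). C11orf31, the nuclear selenoprotein now named SELENOH, had 423 and 334 with panobinostat, 293 and 323 with both drugs, and 711 and 629 in vehicle. Its log2 change was -0.83 with panobinostat (adjusted p = 0.00486) and -1.12 with both (adjusted p = 0.000387).

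EPT1, now SELENOI, makes phosphatidylethanolamine. It had 808 and 704 normalised reads with trametinib, 1458 and 1496 with panobinostat, 818 and 753 with both drugs, and 1568 and 1578 in vehicle. Libraries with trametinib, alone or combined, were low, and its log2 difference between the combination and panobinostat alone was -0.91 ± 0.094 (adjusted p = 0.000119). SELK, which acts in degradation at the endoplasmic reticulum, was the 1 gene of the 9 that was higher with both drugs than with trametinib alone, at 292 and 297 against 180 and 177 normalised reads (log2 difference 0.72, adjusted p = 0.00834). In that comparison 17.6% of all tested genes were higher. The median log2 change of the 9 genes was -0.82 with trametinib, -0.39 with panobinostat and -0.52 with both, against -0.07, 0.00 and 0.03 over all tested genes. Without trametinib replicate 2 the trametinib median was -0.51, with 1 gene higher and 5 lower. GPX2 and GPX6 had no reads in any library.

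Genes that make, insert or take up selenocysteine and selenium moved in both directions, in shares near those over all genes. Of 12 tested, 4 were higher and 2 lower with trametinib, 2 and 2 with panobinostat, and 3 and 2 with both drugs, where 51.0%, 30.5% and 50% of all tested genes passed. Those higher with trametinib were SECISBP2, its relative SECISBP2L, SEPSECS and LRP2, and those lower were LRP8 and EEFSEC, the elongation factor that brings selenocysteine to the ribosome. SECISBP2L and LRP2 were also higher with panobinostat and with both drugs, and SEPSECS was also higher with both drugs. SEPSECS, the enzyme that forms selenocysteine on its tRNA, had 194 and 281 normalised reads with trametinib, against 93.9 and 99.8 in vehicle (log2 change 1.26 ± 0.34, adjusted p = 0.0127). With both drugs SEPSECS had 247 and 224 (log2 change 1.27, limma, adjusted p = 0.0122). SEPHS1, a relative of the selenophosphate synthetase SEPHS2, had 484 and 483 with panobinostat, against 1023 and 1085 in vehicle (log2 change -1.12, adjusted p = 0.000363). With both drugs SEPHS1 had 414 and 513 (log2 change -1.19, limma, adjusted p = 7.78e-05). SECISBP2, which binds the hairpin of selenoprotein mRNAs, had 551 and 704 with trametinib, against 367 and 371 in vehicle (log2 change 0.75, adjusted p = 0.00212).

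The receptors known in mice to take up SEPP1 moved in opposite directions. LRP8, the receptor of brain and testis, had 219 and 198 normalised reads with trametinib, 666 and 688 with panobinostat, 235 and 199 with both drugs, and 916 and 903 in vehicle. Its log2 change was -2.12 ± 0.13 with trametinib (adjusted p = 1.65e-06) and -2.06 with both (adjusted p = 2.38e-06). LRP2, or megalin, the receptor of kidney tubules, had 26.1 and 65.3 with trametinib, 548 and 473 with panobinostat, 1960 and 1657 with both drugs, and 10.8 and 17.4 in vehicle. It rose by 5.11 with panobinostat (adjusted p = 3.04e-05) and by 6.93 with both drugs (adjusted p = 1.07e-06). Both receptors also bind other ligands.

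The thioredoxin system around TXNRD1 fell with trametinib more often than it rose. Of 14 tested genes 3 were higher and 9 lower, with a median log2 change of -0.56, where 23.7% of all tested genes were higher and 27.4% lower, with a median of -0.07. With panobinostat TXN and SRXN1 were higher, and the mitochondrial TXN2 and PRDX3 and the reductase MSRA were lower. Panobinostat had 15.0% of all tested genes higher and 15.6% lower. With both drugs 4 were higher (TXNIP, PRDX2, PRDX5 and MSRB2) and 4 lower (TXN2, TXNL1, PRDX3 and PRDX4). The combination had 24.5% of all tested genes higher and 25.5% lower. The 9 lower with trametinib were TXN, TXNL1, SRXN1, MSRB3 and all tested peroxiredoxins but PRDX5, which was higher. With both drugs against trametinib alone, 8 were higher and 2 lower, where 17.6% of all tested genes were higher and 15.2% lower. The median difference was 0.55, against 0.06 over all tested genes. TXN, the thioredoxin that TXNRD1 reduces, had 554 and 594 normalised reads with trametinib, 1562 and 1592 with panobinostat, 1182 and 1022 with both drugs, and 1267 and 1156 in vehicle. Its log2 change was -1.08 ± 0.099 with trametinib (adjusted p = 1.84e-05) and 0.38 with panobinostat (adjusted p = 0.0174), the same signs as for TXNRD1. With both drugs it was -0.14, which did not pass (adjusted p = 0.276).

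SRXN1, which restores overoxidised peroxiredoxins, had 62.2 and 107 normalised reads with trametinib, 750 and 723 with panobinostat, 459 and 455 with both drugs, and 489 and 398 in vehicle. It had the largest fall of the list with trametinib, by 2.42 on the log2 scale (adjusted p = 2.5e-05), and it rose by 0.74 with panobinostat (adjusted p = 0.0394). PRDX3, the mitochondrial peroxiredoxin, had 646 and 662 with both drugs, against 1648 and 1579 in vehicle (log2 change -1.30, adjusted p = 7.22e-05). TXNIP, which binds and inhibits thioredoxin, had 146 and 143 with both drugs, against 41.5 and 47.5 in vehicle (log2 change 1.68, adjusted p = 0.0039).

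TXNRD1 and SRXN1 are known targets of NRF2, the factor encoded by NFE2L2 that drives antioxidant genes. Of 11 genes of NRF2 and its partners and targets, 3 were higher and 6 lower with trametinib, 3 and 1 with panobinostat, and 4 and 5 with both drugs. Over all tested genes, 51.0%, 30.5% and 50% passed in these comparisons. FTH1, the ferritin heavy chain, was higher in all 3 comparisons, and the light chain FTL was lower in all 3. NFE2L2 had 420 and 450 normalised reads with trametinib, 1657 and 1523 with panobinostat, 1099 and 1094 with both drugs, and 1439 and 1397 in vehicle. Its log2 change was -1.70 ± 0.087 with trametinib (adjusted p = 4.3e-07) and 0.16 with panobinostat, which did not pass (adjusted p = 0.189). NQO1, a quinone reductase, had 5338 and 5444 with trametinib, 35770 and 34172 with panobinostat, 18237 and 17445 with both drugs, and 16474 and 16406 in vehicle. With both drugs NQO1 exceeded trametinib alone by 1.73 on the log2 scale (adjusted p = 5.03e-08). OSGIN1, an oxidative stress-induced growth inhibitor, fell by 2.00 with trametinib (adjusted p = 2.04e-06), and HMOX1, heme oxygenase, rose by 1.54 with both (adjusted p = 9.96e-06).

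Glutathione genes, which supply the substrate of the peroxidases, were split. Of 14 tested, 5 were higher and 5 lower with trametinib, 4 and 2 with panobinostat, and 6 and 6 with both drugs, where 51.0%, 30.5% and 50% of all tested genes passed. GCLM, a subunit of the enzyme that starts glutathione synthesis, had 83.2 and 55.3 normalised reads with trametinib and 191 and 234 with both drugs, against 328 and 336 in vehicle. Its log2 change was -2.27 ± 0.24 with trametinib (adjusted p = 4.39e-05). GGT1, which breaks down extracellular glutathione, had 86.3 and 105 with trametinib, against 21.7 and 18.2 in vehicle (log2 change 2.21, adjusted p = 0.00217). GGT1 was also higher with both drugs, at 102 and 76.1 (log2 change 2.09, limma, adjusted p = 0.0029). With panobinostat it had 31.6 and 59.5, which did not pass. GLRX, a glutaredoxin, had 319 and 305 with panobinostat, against 109 and 128 in vehicle (log2 change 1.39, adjusted p = 0.00125). GLRX was also higher with trametinib, at 222 and 307 (log2 change 1.14, limma, adjusted p = 0.00163). With both drugs it had 295 and 368 (log2 change 1.47, limma, adjusted p = 0.00034).

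Among 10 tested genes of lipid peroxidation and ferroptosis, the process that GPX4 holds back, 2 were higher and 4 lower with trametinib, 1 and 1 with panobinostat, and 3 and 3 with both drugs. These shares are not far from the 51.0%, 30.5% and 50% over all tested genes. TFRC, the transferrin receptor that brings in iron, had 570 and 669 normalised reads with trametinib, 2024 and 2185 with panobinostat, 660 and 732 with both drugs, and 3327 and 3263 in vehicle. Its log2 change was -2.41 ± 0.099 with trametinib (adjusted p = 1.21e-07) and -2.24 with both (adjusted p = 2.31e-07). LPCAT3, which puts polyunsaturated fatty acids into phospholipids, had 816 and 1022 with trametinib and 731 and 715 with both drugs, against 338 and 339 in vehicle. It rose by 1.43 with trametinib (adjusted p = 2.27e-05) and by 1.09 with both (adjusted p = 0.000133).

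A list of genes of thyroid hormone transport, receptors and response also held genes of DIO2 turnover. Its tested genes were higher or did not pass in the comparisons with vehicle. Of 9 tested, 6 were higher with trametinib, 4 with panobinostat and 6 with both drugs, and none was lower. Over all tested genes 23.7%, 15.0% and 24.5% were higher. THRA, KLF9, HR and WSB1 were higher in all 3 comparisons. Genes of DIO2 turnover among those higher were WSB1 and MARCH6 with trametinib, WSB1 with panobinostat, and WSB1 and USP20 with both drugs. The median log2 change of the 9 genes was 1.23 with trametinib, 0.70 with panobinostat and 1.21 with both, against -0.07, 0.00 and 0.03 over all tested genes. HR, a corepressor of thyroid hormone receptors, had 423 and 436 normalised reads with trametinib, 173 and 208 with panobinostat, 336 and 380 with both drugs, and 109 and 119 in vehicle. It rose by 1.91 with trametinib (adjusted p = 1.75e-05). KLF9, a thyroid hormone-responsive factor that also answers to other hormones, had 184 and 95.4 with trametinib, 187 and 220 with panobinostat, 390 and 449 with both drugs, and 53.0 and 48.3 in vehicle.

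KLF9 rose by 1.98 with panobinostat (adjusted p = 0.0013), and with both drugs it was 1.04 above panobinostat alone (adjusted p = 0.034). THRA, a thyroid hormone receptor, had 1322 and 1480 normalised reads with trametinib, 711 and 652 with panobinostat, 954 and 1107 with both drugs, and 547 and 472 in vehicle. THRB, the other receptor, had 78.4 and 71.5 with both drugs, against 10.8 and 1.58 in vehicle (log2 change 3.78 ± 1.17, adjusted p = 0.0229). THRB had 10.0 and 0 with trametinib and 45.9 and 32.3 with panobinostat. Its log2 change with panobinostat was 2.84, which did not pass (limma, adjusted p = 0.0983). WSB1, a ubiquitin ligase adaptor that marks DIO2 for degradation, had 1215 and 1334 with trametinib, 979 and 1013 with panobinostat, 1350 and 1155 with both drugs, and 530 and 552 in vehicle. Its log2 change with both drugs was 1.21 ± 0.10 (adjusted p = 1.16e-05). Of the thyroid follicle markers, TSHR was at 0 in all trametinib and combination libraries. TG, which codes for thyroglobulin, had 23.1 and 42.2 with trametinib, 41.8 and 46.4 with panobinostat, 10.5 and 12.2 with both drugs, and 24.1 and 27.7 in vehicle.

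**Figure D4:**
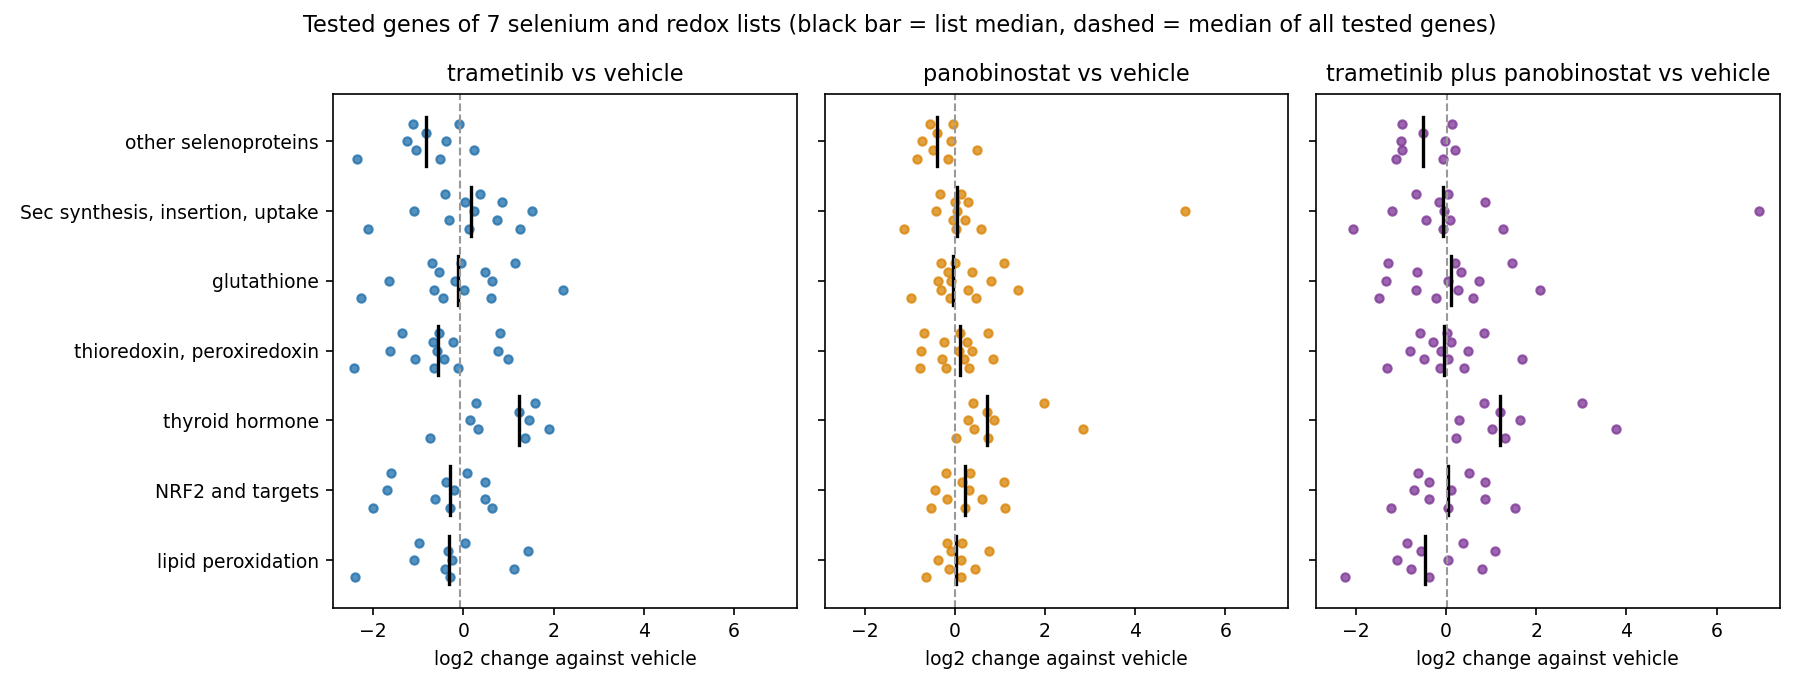
Log2 change against vehicle of every tested gene of the 7 lists, 1 point per gene, with trametinib, panobinostat and both drugs; a black bar marks the list median and a dashed line the median of all tested genes. The list labelled thyroid hormone, which also holds genes of DIO2 turnover, has its median at 1.23, 0.70 and 1.21. The thioredoxin median lies at -0.56 with trametinib, and the point farthest to the right is LRP2, at 6.93 with both drugs.

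The genes whose pattern over the 8 libraries was most like that of the picked genes were found by Pearson's r of log2(value + 1) among 11962 candidates with a group mean of at least 50, as a description over libraries that share treatments. For SEPP1 they were SRP14 (r = 0.996), SLC3A1 (0.987), AGRN (0.987), IFITM10 (0.985) and ANKRA2 (0.984). SLC3A1, a cystine transporter subunit, had 163 and 153 normalised reads with trametinib, 31.6 and 50.4 with panobinostat, 475 and 370 with both drugs, and 5.42 and 1.58 in vehicle, a span of levels like that of SEPP1. For DIO2 they were SLC25A36 (0.987), CYP1B1 (0.980), ZNF292 (0.978), ZIC1 (0.970) and ENPP1 (0.969). Each of these was also higher in trametinib replicate 2 than in trametinib replicate 1, as DIO2 was. Each match of SEPP1 was higher in vehicle replicate 1, which held 4 SEPP1 reads, than in vehicle replicate 2, which held 0. The r values thus also take in differences between replicates. CYP1B1, a cytochrome P450, had 155 and 317 with trametinib, 180 and 205 with panobinostat, 2176 and 1952 with both drugs, and 166 and 115 in vehicle. SRP14, at 1612 to 4263 over the 8 libraries, and SLC25A36, at 1069 to 2176, spanned a much smaller range. SEPP1 and DIO2 correlated with each other at r = 0.798.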

How the data were processed

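RNA-seq of 8 libraries was used as deposited: 1 normalised signal value per gene symbol and library. TopHat2 2.0.13, Cufflinks 2.2.1 and DESeq2 are listed in the submitters' processing notes. The notes name build hs37d5 for 4 libraries and none for the other 4. The annotation and the strand setting of the authors' counting are not stated there or in the labels. Within a library, 100% of the deposited signal values were whole multiples of 1 step within a tolerance of 1e-06, so they are counts divided by a size factor.

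From these values, limma 3.58.1 (R 4.3.3) was fitted on log2(value + 1) with an intensity trend to all 8 libraries and the 13320 genes with a mean of at least 10, with 4 residual degrees of freedom and 5.32 from the prior. The fit shares 1 spread over all groups. The threshold was a p of 0.05, adjusted over all tested genes by Benjamini-Hochberg. Fold changes on this scale understate those of low genes. Errors are standard errors of the fit, and intervals of ratios are exact and cover counting error only. Alternatives were pseudocounts of 0.5 and 5, no filter, a mean of at least 50, TMM scaling, edgeR 4.0.16 and DESeq2 1.42.0 on the recovered reads, only the groups compared, a replicate block and leaving out each library. The procedure was tested on simulated data with the same spread setting for all genes and libraries. Changes were planted only in genes with a mean of at least 50. That test therefore does not cover low genes or the unlike trametinib libraries.

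The genes and all 7 lists were chosen with earlier results of these data known. Named from each list and comparison were the gene with the largest rise and that with the largest fall among those past the threshold whose higher group averaged 50 or more and whose libraries did not overlap; not all are printed. Other genes of the lists were named after their values were seen, as was the alternative of leaving trametinib replicate 2 out of the list counts. Promoter windows are RefSeq's, GRCh38.p14, and exon lengths are GENCODE's; no coordinates come from the deposited table. Some genes are not reported here.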

Additional observations from a re-analysis of the deposited data

Results flagged for a closer look

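For GPX4 and TXNRD1 the effect of panobinostat differed between cells with and without trametinib. With trametinib present, panobinostat left GPX4 higher, at 823 and 811 normalised reads with both drugs, against 583 and 599 with trametinib. Without it, GPX4 was lower, at 645 and 737 with panobinostat, against 1537 and 1588 in vehicle. The difference between these effects was 1.65 on the log2 scale (limma, adjusted p = 7.19e-05). For TXNRD1 panobinostat raised the level in both settings, by 2.36 with trametinib present and by 1.05 without it, and the difference was 1.31 (adjusted p = 2.68e-05). Both differences passed when any 1 library was left out, with a largest adjusted p of 0.00187 for GPX4 and 0.00121 for TXNRD1.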

How the results depend on the processing

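Over all alternatives, 647 values of the 7 tested genes kept their direction and side of the threshold, 22 lost the call, 27 gained it and 11 changed sign; for SEPP1 and DIO2, 182 stayed within 1 SD, 15 moved and 4 changed sign. In a fit of only the groups compared, 7350 genes passed for panobinostat against vehicle (4069 with all libraries), 5357 for both drugs against panobinostat (3191) and 2405 for both drugs against trametinib (4363), and 5 of the 7 selenoprotein genes for panobinostat against vehicle (3). For both drugs against panobinostat, 2 of the 7 passed with a pseudocount of 5, a mean of at least 50, edgeR, DESeq2 or only the groups compared, and 0 with TMM scaling, where limma gave TXNRD1 the lowest adjusted p, 0.0503 (1 in the reported fit). In the interaction, 4 passed with DESeq2 (2). Without trametinib replicate 2, an alternative chosen after seeing the data, 5 genes of the lipid peroxidation list passed for both drugs against trametinib (2), and no other list count moved over 1.5 times. The cause was not tested.

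Without any 1 library, genes passing ran from 4651 to 8924 for trametinib, 1970 to 6815 for panobinostat and 4697 to 8954 for both drugs against vehicle, from 2496 to 7366 for both drugs against trametinib, 1685 to 5742 against panobinostat and 1306 to 6170 in the interaction. Of the 7 genes, 3 to 5, 2 to 5 and 3 to 5 passed against vehicle in the same order, 4 to 4 and 0 to 3 against the single drugs, and 2 to 4 in the interaction.

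Values that changed sign without 1 library were DIO2 with trametinib (-0.19 to 2.28) and with panobinostat (-0.0078 to 0.25), GPX3 with trametinib (-0.42 to 0.29), MSRB1 (-0.074 to 0.19) and SEPW1 (-0.20 to 0.10) with both drugs, SEPN1 (-0.0086 to 0.075) and SEPW1 (-0.040 to 0.48) for both against panobinostat, TXNRD2 for both against trametinib (-0.060 to 0.46), and the interactions of SEPW1 (-0.26 to 0.26) and SEPP1 (-1.56 to 0.21; 0.65 with a pseudocount of 5).

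Same-numbered libraries did not deviate together across tested genes (correlations -0.02 to 0.02), so no pairing by number was seen. Whether they shared a culture or preparation cannot be told from this, since only deviations common to many genes would show. With a replicate block, 6673, 3879 and 6541 genes passed for trametinib, panobinostat and both against vehicle, 4229 and 3027 for both against trametinib and panobinostat, and 2418 in the interaction. Among the 7 genes the block ended 1 call, TXNRD2 with both drugs (adjusted p = 0.0599). Few reads limit the precision of SEPP1 in vehicle (4 and 0) and of GPX1 (at most 17 in a library).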
